A study of Saccharomyces cerevisiae with 36 samples.

Results

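The phospholipid flippases of budding yeast, Saccharomyces cerevisiae, were followed through exposure to 3 drugs that disturb the cell wall. The family was taken as the P4-type ATPase genes DNF1, DNF2, DNF3, DRS2 and NEO1 with the subunit genes CDC50 and LEM3, and the spots annotated to these symbols were used. These are 7 of the 5713 named genes and 14 of the 11872 named spots, with 2 spots for each gene. The genes were chosen by the log2 ratios of DNF2 under congo red and calcofluor white, where it stands higher in treated cells, so these values of DNF2 are given as a description and were not tested. DNF2 under caffeine, and the other 6 genes under all 3 drugs, were tested.

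Flippases move phospholipids from the outer or lumenal leaflet of a membrane to the cytosolic leaflet, using ATP, and so keep aminophospholipids on the cytosolic side. Dnf1 and Dnf2 are closely related, act mainly at the plasma membrane and take up phosphatidylcholine and phosphatidylethanolamine, while Drs2 acts at the trans-Golgi network on phosphatidylserine, Neo1 in the Golgi and endosomes and Dnf3 in Golgi-derived and plasma membranes. Most of these pumps leave the endoplasmic reticulum only with a subunit of the Cdc50 family: Lem3 pairs with Dnf1 and Dnf2, and Cdc50 with Drs2, whereas Neo1 works without one.

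Cultures were treated with calcofluor white at 0.02 or 0.1 mg/ml, congo red at 0.02 or 0.1 mg/ml, or caffeine at 2 or 20 mM, for 5, 15 or 90 min, and each was hybridised on a 2-colour array against an untreated culture of the same time point. The first 2 are wall-binding dyes that attach to chitin and glucan fibrils. Caffeine, a methylxanthine, inhibits yeast growth signalling and is poorly tolerated by wall mutants. Each of the 18 conditions had 2 arrays, which the submitters describe as biological replicates labelled in opposite dye orientation, 36 arrays in all. No strain or medium is stated in the labels used here. Values below are log2 ratios, treated over untreated, each the mean of a gene's spots. Their scale rests on reading the deposited values as natural logs. This base is not stated in the sources and was inferred from the spacing of repeated low values. The direction treated over untreated was assumed. Under it the wall protein gene PIR3, a target of the cell wall integrity pathway, stood at 2.65 ± 0.22 with calcofluor white and 2.46 ± 0.22 with congo red at 0.1 mg/ml and 90 min. Errors written with ± are standard errors of a condition estimate from limma, which takes each gene's residual variance from all conditions together, because a condition has n = 2. The cultures were measured in bulk, so a change in some cells and a change in every cell cannot be told apart.

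The arrays differed in quality. The scaled median absolute deviation of the log2 ratios over genes ran from 0.199 to 0.739 between arrays, and 1.61% to 16.1% of named spots lay at a floor value and were treated as missing. On 7 arrays a part of the labels gives another dose or time than the rest, among them replicate 1 of caffeine 20 mM at 15 min, whose untreated channel carries another time. The channel that holds the treated RNA, or the title, was followed. Replicate 1 of caffeine 2 mM at 5 min correlated at −0.33 with the array of the same orientation at 15 min, so its direction was treated as unsettled. Its median r with all arrays of the same orientation was 0.143. Tests, condition means and correlations that include this array are given with its sign turned as well, and the values of single arrays as deposited. DNF3 was missing on 1 array, in calcofluor white 0.1 mg/ml at 15 min, and was not fitted there. The other 6 genes were measured on all 36 arrays.

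The genes lie on 7 chromosomes of the R64 assembly. DNF1 is YER166W on chromosome V at 512744 to 517459, DNF2 is YDR093W on chromosome IV at 631282 to 636120, and DNF3 is YMR162C on chromosome XIII at 578951 to 583921. DRS2 is YAL026C on chromosome I at 95630 to 99697, and NEO1 is YIL048W on chromosome IX at 261437 to 264892. Of the subunit genes, CDC50 is YCR094W on chromosome III at 286762 to 287937, and LEM3 is YNL323W on chromosome XIV at 31944 to 33188.

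DNF2, a plasma membrane flippase, was high after 90 min with both dyes and at both doses, with little sign of it at 5 min. With calcofluor white at 0.02 mg/ml it stood at 0.17 and 0.16 after 5 min, 0.51 and 0.53 after 15 min, and 2.17 and 1.78 after 90 min in replicates 1 and 2. At 0.1 mg/ml the replicates had 0.35 and 0.06 after 5 min, 0.59 and 0.51 after 15 min, and 1.90 and 1.36 after 90 min. All 12 arrays of this dye were above 0, and the arrays at 90 min did not overlap with those at the earlier times.

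With congo red at 0.02 mg/ml DNF2 stood at −0.10 and 0.07 after 5 min, 0.59 and 0.10 after 15 min, and 1.83 and 1.61 after 90 min. At 0.1 mg/ml it had −0.31 and −0.06 after 5 min, 0.51 and −0.16 after 15 min, and 1.96 and 1.20 after 90 min. The 4 arrays at 90 min were again above every earlier one, while at 5 and 15 min values lay on both sides of 0. Over both dyes the 8 arrays at 90 min ran from 1.20 to 2.17 with a median of 1.80, those at 15 min from −0.16 to 0.59, and those at 5 min from −0.31 to 0.35.

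The condition means at 90 min were 1.97 for calcofluor white 0.02 mg/ml, 1.63 for calcofluor white 0.1 mg/ml, 1.72 for congo red 0.02 mg/ml and 1.58 for congo red 0.1 mg/ml, each ± 0.23. As folds these are 3.93, 3.09, 3.29 and 2.99. Ranked from the highest ratio, DNF2 was number 5 of 4702 genes and number 12 of 5216 genes at the lower and higher dose of calcofluor white. At those of congo red it was number 3 of 5354 genes and number 6 of 5380 genes. Because DNF2 was picked for its rise with these dyes, the ranks are a description only. The dose differences, higher minus lower, were −0.34 ± 0.33 for calcofluor white and −0.14 ± 0.33 for congo red. Congo red minus calcofluor white at 0.1 mg/ml was −0.05, with an interval of −0.73 to 0.64. With all arrays scaled to one spread the difference was 0.42, so its direction depended on the scaling, and the dyes' values for DNF2 are not shown to be alike.

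**Figure D1:**
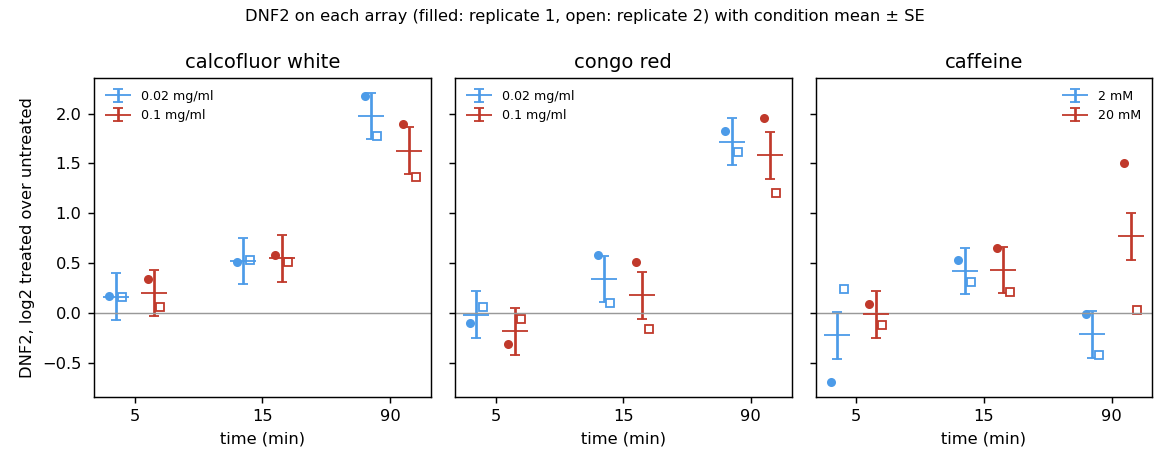
DNF2 log2 ratio, treated over untreated, against time for calcofluor white, congo red and caffeine. Filled circles are replicate 1, open squares replicate 2, colours are the lower and higher dose, and bars are the condition mean ± SE. The 8 dye arrays at 90 min lie between 1.20 and 2.17, above every dye array at 5 and 15 min, and the 2 arrays of caffeine 20 mM at 90 min lie at 1.5 and 0.04.

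Caffeine gave a smaller and less even DNF2 ratio. At 20 mM the replicates had 0.09 and −0.12 after 5 min, 0.65 and 0.21 after 15 min, and 1.5 and 0.04 after 90 min. At 2 mM they had −0.69 and 0.25 after 5 min, 0.54 and 0.31 after 15 min, and −0.01 and −0.42 after 90 min. The 2 arrays of 20 mM at 90 min thus stood far apart, and the lower one overlapped with the other caffeine arrays.

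DNF2 rose by 0.77 ± 0.23 after 90 min of 20 mM caffeine, the only one of its 6 caffeine conditions past the threshold (limma, Benjamini-Hochberg adjusted p = 0.0107). At that time and dose 22% of 5270 tested genes were called higher, and DNF2 was number 693 from the highest. The higher dose minus the lower at 90 min was 0.98 ± 0.33 (limma, adjusted p = 0.0357), in a comparison where 23.2% of genes were called. Both calls rest on replicate 1. Without it the values were 0.13 (limma, adjusted p = 0.741) and 0.45 (limma, adjusted p = 0.495). Caffeine 20 mM minus the mean of the dyes at 0.1 mg/ml and 90 min was −0.84 for DNF2, a description without a test, and −1.25 or −0.43 without replicate 1 or replicate 2.

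The mean of DNF2 over the 6 caffeine conditions was 0.20 (limma, adjusted p = 0.141). With the sign of the unsettled array turned it was 0.31 (limma, adjusted p = 0.00450). In the caffeine 2 mM condition at 5 min, which holds that array, DNF2 was −0.22 as deposited and 0.47 with the sign turned, and neither value passed (limma, adjusted p = 0.543 and 0.0856).

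DNF1, the closest relative of DNF2, did not share its values under the dyes. Its condition means at 90 min were 0.20 and 0.19 at the lower and higher dose of calcofluor white and 0.03 and 0.05 at those of congo red, each ± 0.14, and none passed. Its 8 dye arrays at 90 min ran from −0.33 to 0.58. Replicate 1 was positive and replicate 2 negative in each of these 4 conditions, and over all conditions replicate 1 of DNF1 stood 0.26 above the condition mean and replicate 2 as far below it, an offset that the fit carries as its own term. Replicate number and dye orientation are the same factor here and cannot be told apart. DNF1 and DNF2 are paralogs, and cross-hybridisation between their spots was not tested.

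Under caffeine, DNF1 had 0.90 and −0.23 after 5 min, 0.43 and −0.18 after 15 min, and −0.07 and −0.32 after 90 min at 2 mM. At 20 mM it had 0.52 and −0.13 after 5 min, 0.91 and 0.28 after 15 min, and 0.39 and 0.20 after 90 min. Both arrays were above 0 at 15 and 90 min of the higher dose only. DNF1 rose by 0.59 ± 0.14 after 15 min of 20 mM (limma, adjusted p = 0.00271), where 14.3% of 5258 genes were called higher. The mean over the 6 caffeine conditions was 0.22 ± 0.06 (limma, adjusted p = 0.00502), in a comparison that called 25.8% of genes.

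Both DNF1 calls depended on the treatment of the arrays. Without the term for dye orientation, the replicate block, the value at 15 min had an adjusted p of 0.174 in limma and the caffeine mean an adjusted p of 0.250 in limma. Without replicate 1 the values were 0.54 (limma, adjusted p = 0.120) and 0.18 (limma, adjusted p = 0.0899). With the sign of the unsettled array turned the caffeine mean was 0.07 (limma, adjusted p = 0.478).

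LEM3, the subunit of Dnf1 and Dnf2, passed the threshold in no condition. Its 8 dye arrays at 90 min ran from −0.71 to 0.16 with a median of 0.01, so the subunit transcript was not high where DNF2 was. In caffeine 20 mM at 15 and 90 min its arrays had −0.03 and 0.05, then 0.26 and 0.03. Its lowest value of all, −2.19, came from replicate 2 of calcofluor white 0.02 mg/ml at 5 min, where replicate 1 had 0.57. The mean of that pair was −0.81 ± 0.32 (limma, adjusted p = 0.774). Without replicate 1 the value was −2.04, which rests on 1 array.

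CDC50, the subunit of Drs2, fell in caffeine 20 mM at 15 min, with −2.89 and −1.19 on the 2 arrays. The earlier and later arrays of that dose stood at −0.61 and −0.04 after 5 min and at 0.36 and 0.21 after 90 min. At 2 mM the arrays had 0.27 and 0.26 after 5 min (a mean of 0.27, or −0.00096 with the sign of the unsettled array turned), −0.14 and −0.52 after 15 min, and 0.86 and 0.03 after 90 min. Both arrays of 20 mM at 15 min were below every other CDC50 array, and the 24 dye arrays ran from −0.22 to 0.50.

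The fall of CDC50 was −2.04 ± 0.24 (limma, adjusted p = 3.00e-06), a treated level 0.243 times the untreated one. It was number 5249 of 5258 genes from the highest, where 16.8% of genes were called lower. The spots gave −3.07 and −2.71 in replicate 1 and −1.45 and −0.93 in replicate 2. The change was gone after 90 min: 90 min minus 15 min at 20 mM was 2.33 ± 0.34 (limma, adjusted p = 4.49e-05), in a comparison that called 35.7% of genes. The error is taken from all 36 arrays, while the 2 arrays of this condition stood far apart. On the caffeine arrays alone the fall was −2.04 ± 0.37 (limma, adjusted p = 0.0133). The difference of the times was then 2.33 ± 0.52 (limma, adjusted p = 0.0275). Both calls held under the other settings that keep both arrays of each condition. Several of these settings change only the error and leave the fall at −2.04. With arrays scaled to one spread the fall was −1.27. Leaving out a replicate gave −1.19 or −2.90, which are effect sizes only. The difference of the times ran from 1.40, without replicate 1, to 3.25. Replicate 1 is the array whose untreated channel is labelled with another time. Without it the fall was −1.19, a value that rests on 1 array and has no spread between cultures.

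The mean of CDC50 over the 6 caffeine conditions was −0.28 ± 0.10 (limma, adjusted p = 0.0388) and −0.33 with the sign of the unsettled array turned (limma, adjusted p = 0.0182). It lost the call without the replicate block (limma, adjusted p = 0.0750), with array weights (limma, adjusted p = 0.165) and on the caffeine arrays alone (limma, adjusted p = 0.261).

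DRS2, the Golgi flippase that Cdc50 accompanies, did not pass in any condition. Its arrays in caffeine 20 mM at 15 min had −0.68 and 0.10, a mean of −0.29 ± 0.21 with an interval of −0.72 to 0.15. The interval of CDC50 in the same condition was −2.55 to −1.54, and the difference between these genes was not tested. At 5 min of 20 mM DRS2 had −0.30 and −0.37, at 90 min −0.24 and 0.23. Its highest condition was caffeine 2 mM at 5 min, with 0.51 as deposited and −0.25 with the sign of 1 array turned (limma, adjusted p = 0.145 and 0.402).

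**Figure D2:**
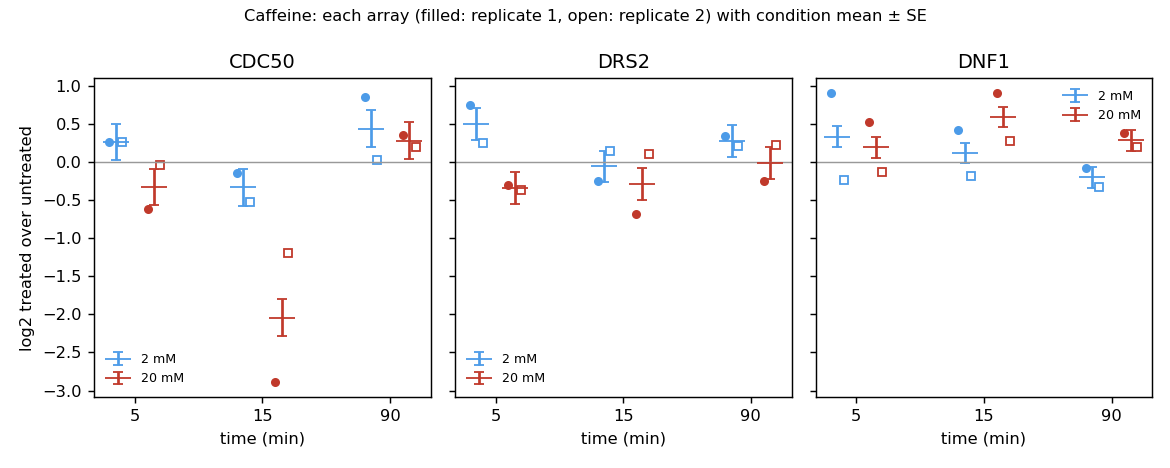
CDC50, DRS2 and DNF1 log2 ratio, treated over untreated, against time of caffeine treatment. Filled circles are replicate 1, open squares replicate 2, colours are 2 and 20 mM, and bars are the condition mean ± SE. CDC50 at 20 mM and 15 min lies at −2.89 and −1.19, below its other arrays, while DRS2 there lies at −0.68 and 0.10 and DNF1 at 0.91 and 0.28.

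NEO1, the flippase without a subunit, and DNF3 passed in none of their conditions. The NEO1 arrays ran from −0.64 to 0.48, and its value nearest the threshold was −0.48 in caffeine 2 mM at 5 min (limma, adjusted p = 0.0601), which was −0.16 with the sign of 1 array turned (limma, adjusted p = 0.521). DNF3 spread more widely, from −0.99 to 1.45, and its residual SD of 0.449 was above that of NEO1, 0.204. Its replicates often lay on opposite sides of 0, as in caffeine 2 mM at 90 min with 1.45 and −0.15. In caffeine 20 mM DNF3 had −0.14 and −0.93 after 15 min and 0.78 and 0.29 after 90 min, a difference of 1.07 ± 0.42 that missed the threshold (limma, adjusted p = 0.0505).

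With the sign of the unsettled array turned, caffeine 2 mM at 5 min would hold a fall of DNF3 of −1.03 (limma, adjusted p = 0.0170) and of DNF1 of −0.57 (limma, adjusted p = 0.0271). As deposited they were 0.33 and 0.34 and did not pass. The share of genes called in that condition was 5.15% as deposited and 17.9% with the sign turned.

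Counted over the family, 3 of 113 tested pairs of gene and condition passed: CDC50 and DNF1 at 15 min and DNF2 at 90 min, each with 20 mM caffeine. The share of all genes called in either direction was 31.1% in the first of these conditions and 44.4% in the second, so the family's 2 of 7 genes and 1 of 7 genes called there are not a result about the family. Under the dyes none of the 71 tested pairs of the other 6 genes passed in limma, and 2 had an unadjusted p under 0.05. Their lowest adjusted p in limma was 0.426, and their intervals in the 4 conditions at 90 min reached from −1.0 to 0.76. In their conditions at 5 and 15 min between 0% and 0.0197% of all genes were called (0.0187% in both congo red conditions with a call). At 90 min 11.1% and 14.7% of genes were called at the lower and higher dose of calcofluor white, and 0.691% and 1.38% at those of congo red.

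**Figure D3:**
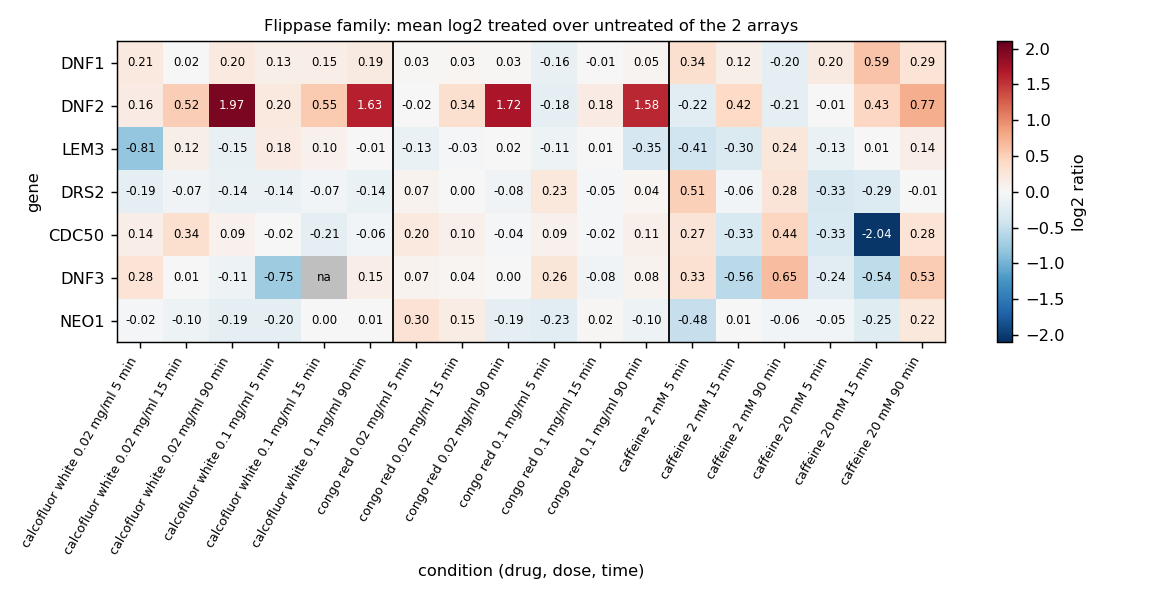
Mean log2 ratio, treated over untreated, of the 2 arrays for each gene (rows) in each of the 18 conditions (columns, by drug, dose and time); red is higher in treated cells, blue lower, and grey marks DNF3 where it was not fitted. DNF2 stands at 1.58 to 1.97 in the 4 dye conditions at 90 min and CDC50 at −2.04 in caffeine 20 mM at 15 min.

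Averaged over the 6 conditions of a dye, DNF2 stood at 0.84 for calcofluor white and 0.60 for congo red, and from 15 to 90 min at 0.1 mg/ml its ratio differed by 1.08 and 1.40, all without a test. The first of these differences was 0.64 with arrays scaled to one spread. Of 18 tested drug means of the family only those of DNF1 and CDC50 under caffeine passed, and 3 had an unadjusted p under 0.05. The calcofluor white mean of DNF1, 0.15, passed under 3 other settings: with array weights, with arrays scaled to one spread and on that drug's arrays alone (limma, adjusted p = 0.0297, 0.0423 and 0.0252). That of DRS2, −0.13, passed on that drug's arrays alone (limma, adjusted p = 0.0345). The share of genes called was 19.8% for the calcofluor white mean and 0.761% for the congo red mean. Of 18 tested differences between 90 and 15 min at the higher dose, CDC50 under caffeine alone passed. The shares of genes called were 2.37% for calcofluor white and 0.0748% for congo red. Of 19 tested dose differences at 90 min, DNF2 under caffeine alone passed, and with either dye 0% of genes were called.

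Between drugs at the higher dose and 90 min, none of 12 tests of the other 6 genes passed in limma and none had an unadjusted p under 0.05. Congo red minus calcofluor white ran from −0.34 ± 0.45 for LEM3 to 0.18 ± 0.29 for DRS2. Caffeine minus the mean of the dyes ran from 0.04 ± 0.26 for DRS2 to 0.42 ± 0.36 for DNF3, with doses in different units. The share of genes called was 0.288% in the first comparison and 29.6% in the second.

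The condition means of DNF2 were not close to those of any other member. Over the 18 conditions Pearson's r was 0.15 between DNF1 and DNF2, and 0.04 between DNF2 and LEM3. With the sign of the unsettled array turned these were 0.21 and −0.03. The highest r was 0.60 between DNF3 and CDC50, followed by 0.58 between DNF3 and DRS2 and 0.51 between DRS2 and CDC50. With the sign turned these were 0.47, 0.64 and 0.52, and without caffeine 20 mM at 15 min they were 0.72, 0.53 and 0.58, or 0.61, 0.60 and 0.57 with the sign turned. The lowest r was −0.66 between DNF1 and CDC50, −0.57 with the sign turned, and −0.23 or −0.19 without caffeine 20 mM at 15 min. Pairs with DNF3 cover 17 conditions. These values describe conditions that share a fit and drugs, and no test goes with them.

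PIR3, SED1 and NCW2 had the condition means most like those of DNF2. Because DNF2 was picked for its rise with the dyes, this ranking favours genes that are high with them. Among 4241 genes on all 36 arrays, the highest Pearson r over 18 conditions was 0.97 for PIR3, then 0.96 for SED1, 0.95 for NCW2, 0.94 for SYH1, 0.94 for YJR084W, 0.93 for PIR1, 0.93 for YNR071C, 0.92 for JEN1, 0.92 for FMP23 and 0.91 for DDL1. PIR3, SED1, NCW2 and PIR1 encode cell wall proteins and stand on the list of wall integrity outputs, and JEN1 encodes a lactate transporter. The remaining genes, JEN1 included, are not on that list. The list was chosen with the effect of these drugs known, and its share among all genes compared is not given here. The median r over all genes was −0.01, and 70 genes, 1.65%, had an r above 0.8.

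The likeness depended in part on the 4 dye conditions at 90 min, where DNF2 was high. Without them r over the other 14 conditions was 0.92 for JEN1, 0.89 for PIR3, 0.88 for PIR1, 0.87 for NCW2 and 0.86 for SED1. The other 5 genes lay between 0.64 for YNR071C and 0.70 for FMP23. With the sign of the unsettled array turned, these 5 lay between 0.48 for YNR071C and 0.72 for SYH1. The first 5 then lay between 0.79 for NCW2 and 0.92 for JEN1. All these genes were picked by their r over a set of conditions that includes these 14, so the choice itself favours a high r here. No r of all genes over the 14 conditions is given for comparison. Whether the likeness holds outside the dyes at 90 min was therefore not tested.

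Over the 6 caffeine conditions alone r ran from 0.71 for YNR071C and DDL1 to 0.98 for NCW2. Turning the sign gave values from 0.50 for YNR071C to 0.94 for JEN1. The same limit holds for these values, because the choice of genes used these 6 conditions as well. With the sign turned, 9 of the 10 genes stayed among the first 10 over the 18 conditions, and YNR071C came at place 11. Measured over the 36 arrays with the dye term removed, 8 of the 10 stayed, and NCW2 came at place 33 and FMP23 at place 21.

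**Figure D4:**
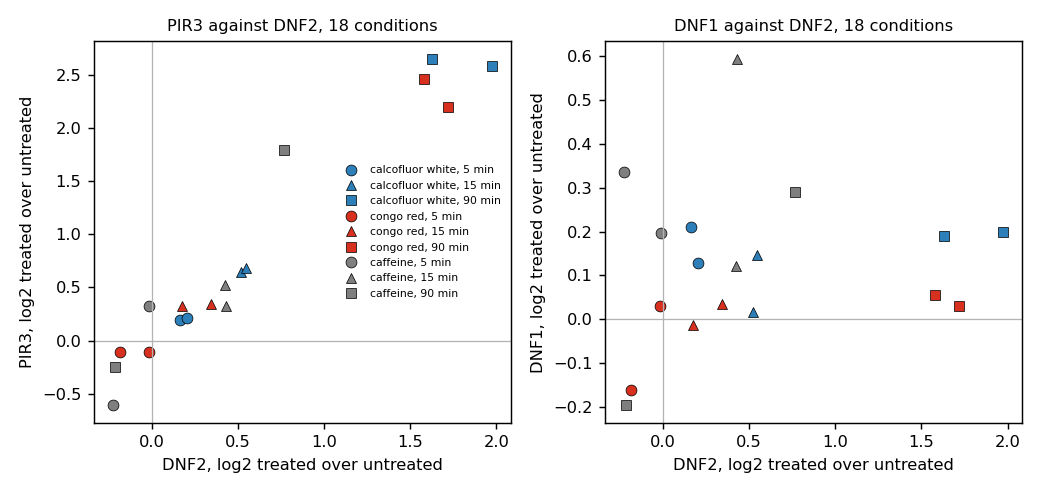
PIR3 (left) and DNF1 (right) against DNF2, each as the mean log2 ratio, treated over untreated, in 18 conditions; colours are drugs and symbols are times. PIR3 follows DNF2 (r = 0.97) and stands at 2.65 and 2.46 with calcofluor white and congo red at 0.1 mg/ml and 90 min, while DNF1 stays between −0.20 and 0.59 (r = 0.15).

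Lists of related genes were read at the higher doses and 90 min. Among wall integrity outputs, which include wall proteins and glucan synthases, 15 of 17 genes tested rose with calcofluor white and 11 of 18 genes with congo red, with list medians of 0.98 and 0.89. Of all genes, 6.33% and 1.12% were called higher in these conditions, with medians of −0.01 and −0.00, and the list was chosen with the effect of these drugs known. With 20 mM caffeine 7 of 18 genes rose, with a median of 0.33, where 22% of all genes were called higher. CWP1, a wall mannoprotein, stood at 2.03 ± 0.25 with calcofluor white (limma, adjusted p = 1.47e-05) and 2.47 ± 0.25 with congo red (limma, adjusted p = 4.81e-06).

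The other P-type ATPases, most of which pump ions, changed in 2 of 11 genes with calcofluor white at 0.1 mg/ml and in none with congo red. Of all genes, 14.7% and 1.38% were called there. YPK9, a vacuolar transporter of the family, rose by 1.07 ± 0.17 with calcofluor white (limma, adjusted p = 0.000226), and PMA2, a plasma membrane proton pump, fell by 0.53 on the log2 scale (limma, adjusted p = 0.0353), a call that was lost without the replicate block, without either replicate, with arrays scaled to one spread and with floored spots kept. The value of YPK9 without replicate 2 was 0.71 (limma, adjusted p = 0.0865). With 20 mM caffeine, where 44.4% of all genes were called, 3 rose and 4 fell of 11, among them the vacuolar calcium pump PMC1 at 1.89 ± 0.21 (limma, adjusted p = 5.36e-07) and PCA1, a metal-exporting pump, at −1.36 ± 0.30 (limma, adjusted p = 0.000945). Without replicate 1, PCA1 was −0.10 (limma, adjusted p = 0.725).

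Among partners and regulators of the flippases, 2 of 15 genes tested fell with calcofluor white, none changed with congo red, and 3 rose and 5 fell with 20 mM caffeine. Of all genes, 8.34% were called lower with calcofluor white, 0.26% with congo red and 22.4% with caffeine. KES1, an oxysterol-binding protein that antagonises Drs2, fell by 0.55 on the log2 scale with calcofluor white (limma, adjusted p = 0.000376) and by 0.42 with caffeine (limma, adjusted p = 0.00125). MON2, which acts with Neo1 in endosomal traffic, rose by 0.99 ± 0.18 with caffeine (limma, adjusted p = 0.000153). KIN82, a kinase that activates the flippases, rose by 0.59 ± 0.14 with caffeine (limma, adjusted p = 0.00197). OSH6, a carrier of phosphatidylserine, fell by 0.53 with caffeine (limma, adjusted p = 0.000797). The call of MON2 was lost without the replicate block. Without replicate 2 the caffeine values were 0.58 for MON2, 0.46 for KIN82 and −0.46 for OSH6, and none of the 3 passed (limma, adjusted p = 0.0833, 0.115 and 0.0512). With arrays scaled to one spread the caffeine values of KES1, KIN82 and OSH6 were −0.22, 0.29 and −0.285, and none of these passed (limma, adjusted p = 0.118, 0.217 and 0.0633).

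In the lists of lipid synthesis and traffic, with calcofluor white 1 of 25 phospholipid synthesis genes, 2 of 21 sphingolipid genes, 3 of 22 genes of trans-Golgi and endosome traffic, and 1 of 11 floppase and multidrug genes passed in limma. With congo red none of the 26, 21, 22 and 11 genes of these lists passed. Of all genes, 14.7% were called with calcofluor white and 1.38% with congo red. KEI1, a subunit of inositol phosphorylceramide synthase, fell by 0.64 on the log2 scale with calcofluor white (limma, adjusted p = 0.00748), a value of −0.47 without replicate 1 (limma, adjusted p = 0.241). ARF1, a Golgi GTPase, stood at −0.41 (limma, adjusted p = 0.00575), a call that was lost without the replicate block, without either replicate and with arrays scaled to one spread.

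With 20 mM caffeine, 9 of 25 phospholipid synthesis genes rose and 6 fell, and the list median was 0.22 against −0.03 over all genes. OPI3, a methyltransferase of phosphatidylcholine synthesis, rose by 2.16 ± 0.15 (limma, adjusted p = 8.47e-10), and the acyltransferase gene GPT2 by 1.29 ± 0.17 (limma, adjusted p = 4.53e-06). Of 21 sphingolipid genes 5 rose and 3 fell, led by the ceramidase genes YDC1 at 2.34 ± 0.19 (limma, adjusted p = 5.82e-09) and YPC1 at 2.28 ± 0.32 (limma, adjusted p = 1.07e-05). Of 22 traffic genes 8 rose and 2 fell, with the clathrin adaptor gene GGA1 at 2.36 ± 0.31 (limma, adjusted p = 9.78e-06). Of 11 floppase and multidrug genes 4 rose and 3 fell, with the transporter gene PDR10 at 1.59 ± 0.18 (limma, adjusted p = 5.99e-07) and the regulator gene PDR3 at −1.16 ± 0.12 (limma, adjusted p = 2.89e-07). These shares stand beside 44.4% of all genes called in that condition.

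**Figure D5:**
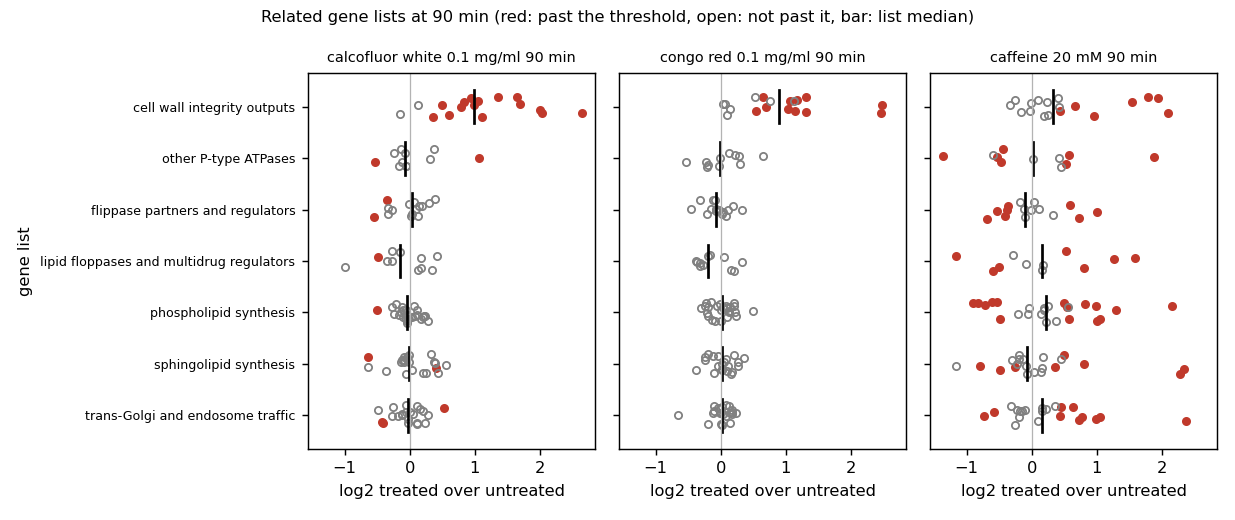
Log2 ratio, treated over untreated, of the genes of 7 related lists (rows) at 90 min with calcofluor white 0.1 mg/ml, congo red 0.1 mg/ml and caffeine 20 mM. Red points passed the threshold, open points did not, and bars are list medians. The wall integrity outputs stand to the right of 0 with both dyes (medians 0.98 and 0.89), and the other lists lie around 0 there.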

How the data were processed

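The authors' deposited value table holds 1 column per array. Its values were read as natural log (ln) ratios deposited by the submitters, from the spacing of repeated low values, and average 0 on each array. No scanner, background correction or normalization method is named in the sources used here. The deposited ln values were divided by 0.6931 to give a log2 ratio, the most frequent value of each array was taken as a floor and set to missing, spots were averaged per gene, and each array was centred on its median. The ratio direction in the deposited values was assumed to be treated over untreated.

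A linear model per gene, with a term for each of 18 conditions and one for dye orientation, was fitted to the 36 arrays by least squares. The tests then used the empirical Bayes variances of limma 3.58.1 (R 4.3.3). Genes needed at least 24 arrays and both arrays of each condition compared (5391 genes fitted, 17 residual degrees of freedom, prior 3.67). P values were adjusted by Benjamini-Hochberg over all genes of a comparison, with a threshold of 0.05. The dye term is also the replicate block: same-numbered arrays deviated together in 153 of 153 pairs of conditions (r 0.113 to 0.784). The correlation between the 2 orientations of a condition was 0.650 for caffeine 20 mM at 90 min, 0.514 at 15 min, and −0.488 to 0.127 elsewhere. The number of arrays limits the precision (median SE of a condition 0.166). Tables were prepared in python 3.11.15 (pandas 2.3.3, numpy 2.4.6). The procedure was tested on simulated data, where it recovered 68 to 99 of 100 genes changed by 1 on the log2 scale, depending on the comparison. The simulation gave each gene the same error variance in all conditions. It therefore does not cover the unequal spread of the arrays.

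The members, gene lists and comparisons were chosen with earlier results of these data known. Named list genes were those past the threshold at 90 min of a higher dose, at most 4 per list and condition by smallest p, and the text names those with the smallest p. Genes like DNF2 were the 10 with the highest r. Promoter and protein sequences were not used here, and the planned motif search was not run. Other settings were no dye term, no centring, array weights, arrays scaled to one spread, floored spots kept and other limits on missing arrays. Further ones were 1 sign turned, only the arrays of the drugs compared, and each replicate left out. Leaving out a replicate leaves 1 array in a condition, so the p values of those fits do not measure spread between cultures.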

Additional observations from a re-analysis of the deposited data

Results flagged for a closer look

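DNF2 under caffeine at 90 min differed between the doses, 20 mM minus 2 mM being 0.98 (limma, adjusted p = 0.0357). The arrays had 1.5 and 0.04 at 20 mM, and −0.01 and −0.42 at 2 mM. Without replicate 1 the difference was 0.45. On caffeine arrays alone it did not pass (limma, adjusted p = 0.219).

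CDC50 under 20 mM caffeine differed between the times, 90 min minus 15 min being 2.33 (limma, adjusted p = 4.49e-05). The arrays had 0.36 and 0.21 at 90 min, and −2.89 and −1.19 at 15 min.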

How the results depend on the processing

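The fall of CDC50 in caffeine 20 mM at 15 min and its difference between 90 and 15 min passed where both arrays were kept. Several of these settings leave both values unchanged. On caffeine arrays alone their adjusted p in limma was 0.0133 and 0.0275. DNF2 was picked for its rise with the dyes, so its values there at 90 min are a description under every setting. They ran from 1.205 for calcofluor white 0.1 mg/ml to 2.041 for calcofluor white 0.02 mg/ml. Settings that change only the error leave these condition means as they were. Of 113 pairs of gene and condition, 3 passed, 5 with the sign of 1 array turned and 1 with only the arrays of the drug compared; leaving out a replicate gave 2 to 7, of which 4 are DNF1, DNF2, DNF3 and DRS2 in caffeine 2 mM at 5 min, read there from the array of unsettled sign alone. With that sign turned, DNF1 (−0.57) and DNF3 (−1.03) in caffeine 2 mM at 5 min reversed. Of the drug means 2 passed, 0 without the replicate block in limma, where 3 had an unadjusted p under 0.05 with the block, and 1 to 2 without a replicate. The calcofluor white mean gained a call for DNF1 with array weights, with arrays scaled to one spread and on that drug's arrays alone, and for DRS2 on that drug's arrays alone. The dose differences had 1 call, and 0 without the replicate block, without centring, with array weights, with arrays scaled to one spread, and with only caffeine arrays in limma; leaving out a replicate gave 0 to 1. The lost call is that of DNF2 under caffeine, whose adjusted p in limma was 0.115 without the block, 0.0664 without centring, 0.0626 with array weights and 0.219 on caffeine arrays. The time differences had 1 call and 2 with the sign turned. DNF2 in caffeine 20 mM at 90 min lost its call when arrays were scaled to one spread (0.49, adjusted p = 0.151 in limma) and on caffeine arrays alone (adjusted p = 0.105 in limma). DNF1 in caffeine 20 mM at 15 min had an adjusted p of 0.0553 in limma on caffeine arrays alone. Of 47 results for list genes, 23 passed under every setting. The cause of these changes was not tested.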
